A study of Mus musculus with 4 samples.

Results

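The genes described here are 43 mouse genes of DNA replication and S phase, a given list that runs from origin licensing to the E2F factors. Their transcripts were found in the deposited assemblies by matching runs of exon and intron lengths to a mouse gene annotation, and all 43 were found among 12886 named genes. The libraries came from C2C12, a mouse skeletal myoblast line of C57BL/6 strain per the labels, which stops dividing and forms myotubes when serum is withdrawn. Polyadenylated RNA was sequenced once from cells in exponential growth in 20% fetal bovine serum (labelled -24 h, called growth here) and once each at 60 h, 120 h and 168 h after confluent cells were moved to low serum. No group carried a transgene or drug by the labels, and nothing in them says that a library pooled more than 1 culture. No time was replicated, so differences are given between single libraries and carry no p-value.

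Replication begins when the origin recognition complex, Cdc6 and Cdt1 load the ring-shaped Mcm2-7 helicase onto DNA, a step called licensing that takes place before S phase. In S phase Cdc45, the GINS complex and Mcm10 switch the helicase on, primase and the DNA polymerases copy the strands with a sliding clamp, and ribonucleotide reductase and its partners supply the nucleotides. E2F factors, held back by the retinoblastoma protein in resting cells, drive the transcription of many of these genes, and differentiating myoblasts leave the cell cycle for good as they fuse.

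Levels are in FPKM as the authors deposited them, which counts the fragments of a transcript relative to its length in kilobases and to the size of the library. The number after ± says how far away the confidence limit lies, and it leaves out any variation between cultures. For a gene in 1 transcript it comes from the deposited limit. For several transcripts it is the square root of their summed squared distances, which treats them as independent. Through the introns it is the median of such values over the introns. The main value of a gene is the sum over its assembled transcripts. Beside it stands the level through the introns. For every intron that a transcript of the library holds, the FPKM of the transcripts that span it are added, and the median over those introns is taken. Introns held by no transcript in a library are left out and not counted as 0, so a late value can rest on few introns. A gene with no transcript at all in a library was taken as 0 by both values. Values through the introns are mostly printed without their limits. A gene that was assembled in several pieces adds up their values in the sum, each scaled to its own short length, but not in the value through the introns. For a gene in 1 transcript with introns both values are the same number, so their agreement is no separate support. A gene fell or rose where its log2(FPKM + 1) changed by the equivalent of 2-fold or more, its level reached 1 FPKM in either library and its intervals were apart. All log2 ratios are on that scale, which understates the change of low genes.

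The libraries held 28513976 fragments in growth, 48228887 at 60 h, 24488681 at 120 h and 43845262 at 168 h. The members had a median of 2176 fragments each in growth, 989 at 60 h, 323 at 120 h and 341 at 168 h. The lowest count of an assembled member was 188 fragments in growth, 55 at 60 h, 21 at 120 h and 5 at 168 h. The members had 579 named introns that were held by a transcript in at least 1 of the libraries. Annotated introns never assembled are not counted, here or where a gene is said to hold all its introns. Of the 579, 95.5% were held in growth, 93.8% at 60 h, 72.9% at 120 h and 68.0% at 168 h, so the later values rest on more broken assemblies. The myoblast markers Myod1 and Des were present throughout, at 193 FPKM in growth, 215 at 60 h, 134 at 120 h and 86.1 at 168 h and at 452 FPKM in growth, 1303 at 60 h, 1904 at 120 h and 2286 at 168 h. All 5 markers of differentiated muscle rose at 60 h, among them Myog (399 ± 3.08 FPKM, against 16.9 ± 1.27 FPKM in growth). Of 4 macrophage markers, Ptprc and Adgre1 were not assembled in any library and the summed level was 1.14 to 4.83 FPKM. Of 4 endothelial markers, Pecam1 was not assembled, and the summed level was 1.20 FPKM in growth and 5.67 to 10.4 FPKM later, most of it Vwf in 7 to 9 pieces. The part of these cell types in the results was not tested. The proliferation markers Mki67, Top2a, Ccnb1 and Cdk1 together had 294 FPKM in growth, 95.1 at 60 h, 37.4 at 120 h and 16.6 at 168 h.

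The comparison of 60 h with growth asks how the replication genes stood once the cells had been in differentiation medium. At 60 h, 35 of the 43 members fell and 2 rose, while 15.5% of the 12561 genes compared fell and 11.1% rose. Their median log2 ratio was -1.73, against -0.18 for all genes. Through the introns 38 of 42 fell and 2 rose, where 11.3% and 9.40% of all genes did so. In bulk RNA, fewer cells of a type and less RNA per cell cannot be told apart. The members that rose were Mcm10, which had no transcript in growth, and E2f2. Those not called by the sum were Orc1, Orc2, Mcm7, Rfc4, Pola1 and Brca1, and of these only Orc2 and Rfc4 also went uncalled through the introns.

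Few members were called at the next step. At 120 h against 60 h, Orc6, Rfc5 and Pold1 fell and Mcm10 and Pole rose, where 3.85% of all genes fell and 12.4% rose. Rfc5 and Pold1 had no named transcript at 120 h, so their calls rest on a gap in the assembly. Mcm10 and Pole had ratios of the opposite sign through the introns (-0.44 and -0.33). The members' median log2 ratio was -0.29, against 0.15 for all genes. Through the introns 4 fell and 0 rose (2.92% and 3.67% of all genes), and Rfc5 and Pold1 were among the 4. At 168 h against 120 h, 15 members fell and 3 rose, where 10.1% of all genes fell and 4.17% rose, with a median of -0.70, against -0.12. The 3 that rose were Rfc5 and Pold1, by the same gap, and Gins2, which had -0.24 through the introns. Through the introns 12 of 41 fell and 1 rose in that step (3.59% and 3.01% of all genes). That rise was Pold1, again by the gap. Over the union of exons the median of that step was -0.68, against 0.04 for all genes. With the libraries rescaled to equal median ratios the 15 falls became 10, because the calls of Orc1, Mcm5, Mcm7, Cdc45 and Rrm1 were lost. Before the pseudocount that rescaling moves ratios by -0.20 at 120 h against 60 h and by 0.16 at 168 h against 120 h. The relative size of these steps therefore depends on the scaling.

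From end to end, at 168 h against growth, 39 of 43 members fell and Mcm10 rose, where 18.6% of all genes fell and 15.5% rose. The median log2 ratio was -2.38, against -0.11 for all genes, and through the introns 39 of 41 fell and 0 rose (17.9% and 14.1% of all genes). Gins2, Pole and E2f2 were not called by the sum. The members' median level was 35.8 FPKM in growth, 9.17 at 60 h, 7.83 at 120 h and 4.71 at 168 h, while the median of all assembled genes stayed between 8.64 and 11.01 FPKM. In growth 35 of 42 assembled members lay above the median of all genes, and at 168 h 12 of 43 did. The summed level of the members was 2205 FPKM in growth, 609 at 60 h, 501 at 120 h and 323 at 168 h.

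**Figure D1:**
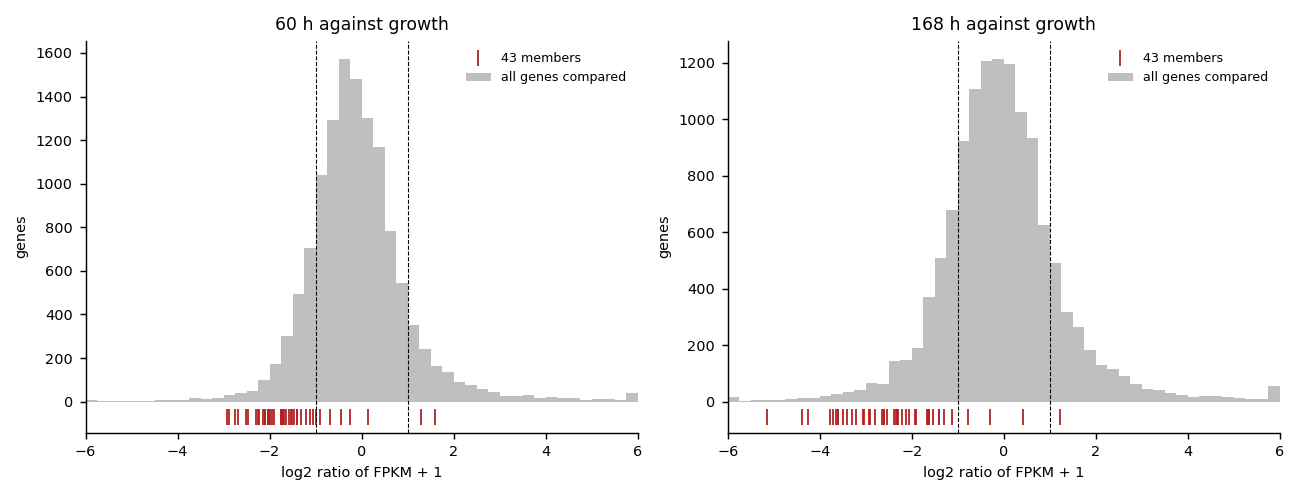
Histograms of the log2 ratio of FPKM + 1 for all genes compared (grey bars, number of genes on the vertical axis, outermost bars hold what lies beyond the axis), at 60 h against growth and at 168 h against growth, with each member as a red tick below the axis and the 2-fold limits as dashed lines. Most ticks lie left of the lower limit, with medians of -1.73 and -2.38, while the bulk of all genes lies between the limits.

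Licensing factors and helicase subunits made up 12 of the members. At 60 h 9 of the 12 fell and 0 rose (median log2 ratio -1.90), and at 168 h against growth all 12 fell (median -3.17, through the introns -3.50). Mcm2 to Mcm7 encode the 6 subunits of the replicative helicase, which work in equal numbers. Mcm5 (chr8:77633432-77651774 in the files' coordinates) had 162 ± 2.82 FPKM in growth, 23.1 ± 0.835 at 60 h, 16.4 ± 3.22 at 120 h and 7.46 ± 1.29 at 168 h. In growth that was the highest level of the 12. Mcm3 (chr1:20793025-20810369) had 110.5 ± 2.27 FPKM in growth, 18.5 ± 0.718 at 60 h, 10.6 ± 0.774 at 120 h and 2.15 ± 0.260 at 168 h, each time in 1 transcript with all 16 introns. Its level at 168 h was 1.95% of that in growth, the lowest share by the sum of the 42 members with a growth value. Mcm6 had 88.5 ± 2.06 FPKM in growth, 19.9 ± 0.751 at 60 h, 11.6 ± 0.812 at 120 h and 3.29 ± 0.320 at 168 h. Mcm2 had 98.0 ± 2.02 FPKM in growth, 28.8 ± 0.848 at 60 h, 17.0 ± 0.917 at 120 h and 11.1 ± 0.562 at 168 h, and Mcm4 had 40.2 ± 1.31 FPKM in growth, 7.46 ± 0.434 at 60 h, 4.58 ± 0.482 at 120 h and 2.41 ± 0.261 at 168 h. All 5 of these subunits fell at 60 h, with log2 ratios of -2.75 for Mcm5, -2.52 for Mcm3, -2.28 for Mcm4, -2.10 for Mcm6 and -1.73 for Mcm2, and no interval in growth met one of a later library.

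None of these 5 subunits was called at 120 h against 60 h, and at 168 h against 120 h they moved unequally. Mcm3 (-1.89), Mcm6 (-1.55) and Mcm5 (-1.04) fell at that last step, whereas Mcm4 had -0.71 and Mcm2 -0.58. Mcm5 was in 3 pieces with 11 of its 16 introns at 168 h, and its level through the introns was 1.60 FPKM there, 0.989% of growth. Mcm7 was in 4 pieces in growth and in 7, 5 and 3 pieces later, and its sum was 79.1 ± 4.68 FPKM in growth, 58.0 ± 3.95 at 60 h, 31.8 ± 3.30 at 120 h and 15.2 ± 1.95 at 168 h. By the sum it was not called at 60 h (log2 ratio -0.44). Through its introns Mcm7 had 55.2, 7.42, 7.52 and 2.71 FPKM in the same order, a ratio of -2.74 at 60 h that passed the rule. Of the 50-base words of Mcm7, 23.3% also occur in other annotated genes, led by Gm5487, so its level is uncertain. Through the introns the highest of the 6 subunits lay 4.02 times above the lowest in growth, 3.88 times at 60 h, 3.72 times at 120 h and 6.93 times at 168 h, where Mcm2 was the highest at 11.1 FPKM and Mcm5 the lowest. By the sum this factor was 4.02 in growth, 7.77 at 60 h, 6.95 at 120 h and 7.07 at 168 h, with Mcm7 the highest in the 3 later libraries, so the time at which the spread widened differed between the measures.

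**Figure D2:**
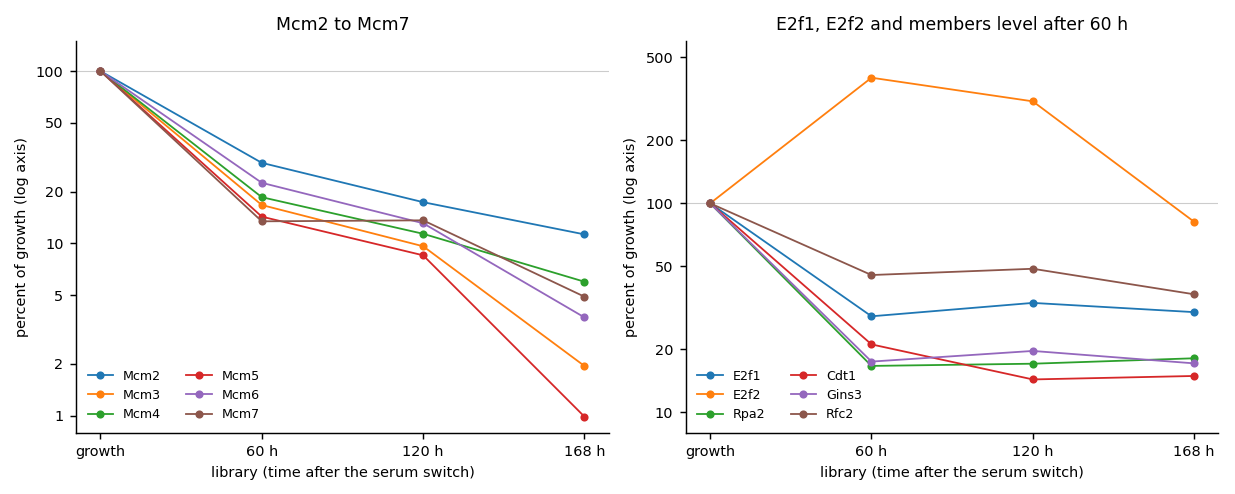
FPKM through the introns as percent of the growth library (log axis) for Mcm2 to Mcm7 on the left and for 6 further members, chosen after their values were seen, on the right; each point is 1 library. The helicase subunits lie between 0.989% and 11.3% of growth at 168 h, while Rpa2, Cdt1, Gins3, E2f1 and Rfc2 had no call between neighbouring libraries after 60 h and E2f2 was highest at 60 h.

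Of the factors that load the helicase, Cdt1, Cdc6 and Orc6 fell at 60 h by the sum, with the inhibitor Gmnn, and Orc1 and Orc2 were not called. Cdt1, which brings Mcm2-7 to the origin, had 54.1 ± 3.99 FPKM in growth, 11.4 ± 0.655 at 60 h, 7.77 ± 0.759 at 120 h and 8.08 ± 0.580 at 168 h, and fell at 60 h (log2 ratio -2.15) with no call after that. Gmnn encodes geminin, which binds Cdt1 and blocks a second round of loading. It had 30.1 ± 2.11 FPKM in growth, 6.56 ± 0.743 at 60 h, 3.81 ± 0.832 at 120 h and 1.95 ± 0.442 at 168 h, so inhibitor and target fell by similar log2 ratios at 60 h (-2.04 for Gmnn). Cdc6, the ATPase that works with the origin recognition complex, had 17.7 ± 1.03 FPKM in growth, 5.74 ± 1.10 at 60 h, 5.69 ± 2.10 at 120 h and 0.903 ± 0.642 at 168 h. At 60 h and 120 h it was in 4 and 5 pieces, and through its introns it had 17.7, 1.20, 1.05 and 0.451 FPKM, and 83.7% of its log2 fall at 168 h was seen at 60 h by that value. At 168 h the transcripts of Cdc6 held 2 of its 10 introns and 8 fragments, and the limit through the introns was 0.454 FPKM away. Both measures called the fall of Cdc6 at 60 h, the sum at -1.47 and the introns at -3.08.

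Orc6, the smallest subunit of the origin recognition complex, had 25.4 ± 1.59 FPKM in growth, 6.81 ± 0.634 at 60 h, 2.90 ± 0.582 at 120 h and 2.45 ± 0.402 at 168 h. It was the only licensing gene to fall at 120 h against 60 h (-1.003), a ratio just past the limit of 2-fold. Orc1, the largest subunit and an ATPase, had 5.98 ± 1.79 FPKM in growth, 3.33 ± 1.44 at 60 h, 3.51 ± 2.12 at 120 h and 0.678 ± 0.606 at 168 h. Its intervals in growth and at 60 h overlapped, and through the introns it had 3.78, 0.6003, 0.899 and 0.128 FPKM and fell at 60 h (-1.58). At 168 h the transcripts of Orc1 held 2 of its 17 introns and 5 fragments, and the limit through the introns was 0.256 FPKM away, more than the value itself. Orc2, a core subunit, had 7.15 ± 1.49 FPKM in growth, 5.86 ± 1.55 at 60 h, 2.96 ± 1.29 at 120 h and 2.72 ± 0.269 at 168 h. Its intervals in growth and at 60 h overlapped too, and its ratio of -0.25 at 60 h was among the smallest of all members. Orc2 fell at 168 h against growth (-1.13), a call lost when the libraries were rescaled to equal median ratios. Of its exon bases 29.8% lie opposite Nif3l1, and without strand in the libraries the reads of the pair cannot be separated.

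The promoters of the members were searched for the motif that E2F factors are known to bind. RefSeq promoters (GRCm38.p6, from 250 bases before to 50 after a start) matched 36 of the 43 members with 42 promoters. Mcm4, Gmnn, Gins1, Gins2, Rfc2, Prim2 and Pole had no entry in that table. An E2F-type motif was sought as TTTCCCGC, TTTCGCGC, TTTGCCGC or TTTGGCGC on either strand, with overlapping matches counted apart. It was found in 14 of the 42 promoters (33.3%), against 2.26% of all 32851 promoters in the table and 2.85% of the 21263 promoters of protein-coding genes. The 14 members were Mcm3, Mcm5, Mcm6, Mcm7, Orc1, Cdc6, Cdt1, Gins3, Rfc3, Pola1, Pold1, Pole2, Lig1 and E2f2. A CCAAT box on either strand was in 25 of the 42 (59.5%), against 37.4% of all promoters. Members with an E2F-type match had a median log2 ratio through the introns of -2.73 at 168 h against growth (14 members, -5.97 to -0.26). Members with a promoter but no match had -2.57 (20 members, -4.49 to 0.36). The ranges of the 2 sets overlapped, with the lowest ratio in the set with a match, and the difference was not tested. A match is a run of letters and not a measured binding site. Shown are the 250 bases before the start of 5 licensing genes that hold a match and fell by 168 h, and a window of 30 bases around the match of Cdt1, which fell, and of E2f2, which rose at 60 h. All are written 5′ to 3′ on the gene's strand, with the matched letters in capitals.
Mcm5: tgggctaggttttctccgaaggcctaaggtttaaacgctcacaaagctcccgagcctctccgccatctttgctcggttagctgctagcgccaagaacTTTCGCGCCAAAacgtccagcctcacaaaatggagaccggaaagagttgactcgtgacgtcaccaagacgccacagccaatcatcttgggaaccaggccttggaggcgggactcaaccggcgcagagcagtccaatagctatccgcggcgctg
Mcm6: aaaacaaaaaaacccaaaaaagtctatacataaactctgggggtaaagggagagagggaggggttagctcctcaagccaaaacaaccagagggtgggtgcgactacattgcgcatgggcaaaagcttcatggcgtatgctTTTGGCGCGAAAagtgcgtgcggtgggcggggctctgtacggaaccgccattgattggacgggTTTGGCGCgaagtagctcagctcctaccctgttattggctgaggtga
Mcm7: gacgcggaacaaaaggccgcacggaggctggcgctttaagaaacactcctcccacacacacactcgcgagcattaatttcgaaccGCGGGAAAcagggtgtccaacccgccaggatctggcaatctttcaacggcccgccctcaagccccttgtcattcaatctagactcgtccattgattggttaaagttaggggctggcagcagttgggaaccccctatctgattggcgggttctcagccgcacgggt
Orc1: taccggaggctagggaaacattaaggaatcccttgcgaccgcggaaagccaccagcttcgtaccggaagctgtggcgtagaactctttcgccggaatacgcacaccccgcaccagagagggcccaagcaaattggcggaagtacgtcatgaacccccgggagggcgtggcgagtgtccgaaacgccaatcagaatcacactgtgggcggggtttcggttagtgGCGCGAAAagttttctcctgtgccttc
Cdc6: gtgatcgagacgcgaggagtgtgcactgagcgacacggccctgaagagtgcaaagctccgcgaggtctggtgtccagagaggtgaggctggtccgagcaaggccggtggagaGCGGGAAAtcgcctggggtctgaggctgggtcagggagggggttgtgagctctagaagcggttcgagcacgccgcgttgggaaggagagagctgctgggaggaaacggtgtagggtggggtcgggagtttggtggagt
Cdt1: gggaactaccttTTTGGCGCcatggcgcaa
E2f2: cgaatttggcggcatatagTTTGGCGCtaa
In GRCm38.p6 these lie at chr8:75109259-75109508 (Mcm5, plus strand), chr1:128359706-128359955 (Mcm6, minus), chr5:138171884-138172133 (Mcm7, minus), chr4:108579204-108579453 (Orc1, plus), chr11:98907901-98908150 (Cdc6, plus), chr8:122568035-122568064 (Cdt1, plus) and chr4:136172294-136172323 (E2f2, plus). The matches of Mcm5 begin 153 and 149 bases before the start and overlap on opposite strands, and those of Mcm6 begin 110, 106 and 47 bases before it, the first pair of them overlapping. Cdc6 has its match 138 bases before the start, Orc1 27 bases before it and Mcm7 165 bases before it with another 16 bases after it. In Cdt1 and E2f2 the match lies 32 and 39 bases after the start, and both carry the same letters, TTTGGCGC, although Cdt1 fell at 60 h and E2f2 rose.

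The genes that switch the helicase on were 5 members, of which 4 fell and Mcm10 rose at 60 h. Cdc45, which with GINS joins Mcm2-7 in the active helicase, had 46.4 ± 1.86 FPKM in growth, 10.9 ± 0.856 at 60 h, 6.27 ± 1.03 at 120 h and 2.45 ± 0.471 at 168 h. It fell at 60 h (-1.99) and again at 168 h against 120 h (-1.08), and no pair of its intervals overlapped. Gins1, a subunit of the 4-part GINS complex, had 20.9 ± 1.65 FPKM in growth, 3.62 ± 0.527 at 60 h, 2.77 ± 0.666 at 120 h and 1.63 ± 0.616 at 168 h, and fell at 60 h (-2.25). Gins3, another subunit, had 7.82 ± 0.667 FPKM in growth, 1.37 ± 0.216 at 60 h, 1.54 ± 0.358 at 120 h and 1.80 ± 0.454 at 168 h. It reached its lower level by 60 h (-1.90) and its later intervals overlapped.

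Gins2 and Mcm10 each had a later step whose sign differed between the measures. Gins2 was in 1 transcript with all 4 introns until 120 h and in 5 pieces with 1 of the 4 introns at 168 h. Its sum was 22.3 ± 1.01 FPKM in growth, 7.76 ± 0.411 at 60 h, 6.73 ± 0.538 at 120 h and 29.9 ± 3.96 at 168 h, a rise at the last step (2.000), while through the introns it had 22.3, 7.76, 6.73 and 5.55 FPKM and a ratio of -0.24. The introns gave a fall of Gins2 at 168 h against growth (-1.83) where the sum gave 0.41. Of its exon bases 67.3% lie opposite Gse1, so fragments of Gse1 can be counted to Gins2. Mcm10, a scaffold that joins the helicase to the polymerases, had no transcript over its span in growth although its neighbours Phyh and Optn were assembled at 5.59 and 6.22 FPKM. It had 2.04 ± 0.213 FPKM at 60 h in 1 transcript, 5.17 ± 1.25 at 120 h in 4 pieces and 1.35 ± 0.682 at 168 h in 4 pieces. Through the introns Mcm10 had 2.04, 1.25 and 0.280 FPKM at these times, so it was highest at 60 h by that value. A level of 0 was taken for growth by the rule, and no fold is given against it.

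**Figure D3:**
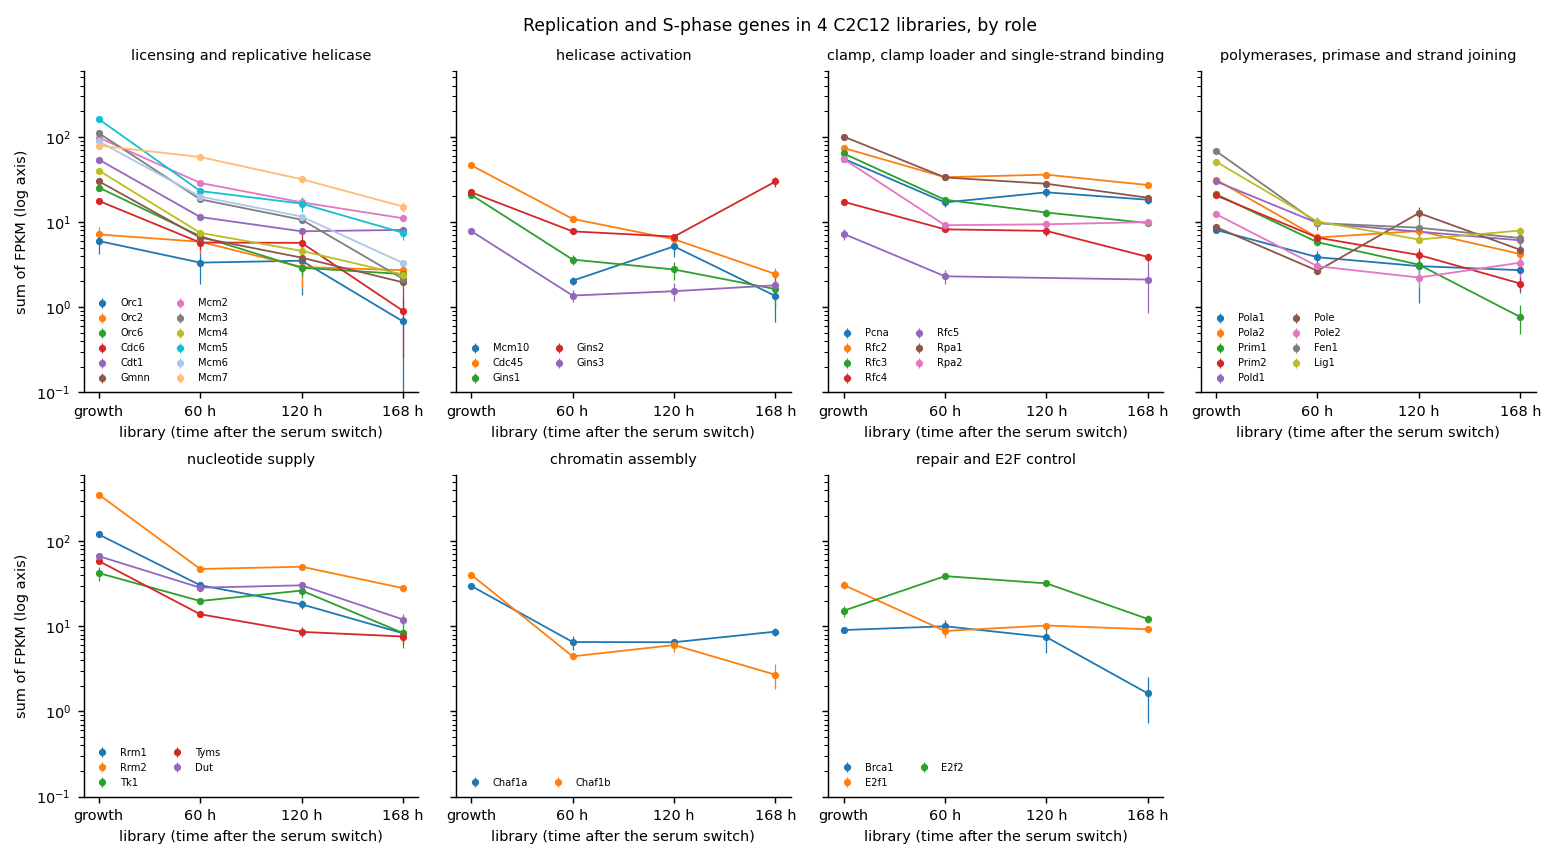
Sum of FPKM (log axis) of each member in the growth, 60 h, 120 h and 168 h libraries, 1 panel for each role. Bars reach to the confidence limits, combined over the transcripts of a gene and cut at the axis floor. A library in which a gene was not assembled has no point. Nearly all lines step down between growth and 60 h; E2f2 at 60 h, Pole at 120 h and Gins2 at 168 h step up.

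The clamp, its loader and the single-strand binding proteins were 7 members, of which 6 fell at 60 h (median log2 ratio -1.57) and all 7 at 168 h against growth (median -1.90). None of them fell at 168 h against 120 h, where 10.1% of all genes fell, so a count of 0 among 7 is near the background. Pcna, the sliding clamp that holds the polymerase on DNA, had 55.3 ± 4.12 FPKM in growth, 17.0 ± 1.79 at 60 h, 22.3 ± 2.76 at 120 h and 18.3 ± 2.18 at 168 h. It fell at 60 h (-1.65) and was not called after that. Its assembled transcripts held at most 1 intron, and 19.1% of its words of 50 bases also occur in Pcna-ps2, so its level is uncertain. Rfc2 to Rfc5 are the small subunits of the clamp loader. Rfc2 had 74.0 ± 2.51 FPKM in growth, 33.6 ± 1.33 at 60 h, 35.99 ± 1.97 at 120 h and 27.2 ± 1.28 at 168 h, Rfc3 had 63.8 ± 2.69 FPKM in growth, 18.3 ± 1.10 at 60 h, 12.9 ± 1.33 at 120 h and 9.72 ± 0.864 at 168 h, and Rfc4 had 17.3 ± 0.941 FPKM in growth, 8.20 ± 0.499 at 60 h, 7.86 ± 1.04 at 120 h and 3.89 ± 0.461 at 168 h. Rfc3 fell at 60 h by a ratio of -1.75 and Rfc2 by -1.12, whereas Rfc4 at -0.99 missed the limit. The call of Rfc2 was lost when the libraries were rescaled to equal median ratios.

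Rfc5 had 7.26 ± 1.06 FPKM in growth, 2.30 ± 0.439 at 60 h and 2.11 ± 1.25 at 168 h, and no transcript was named as Rfc5 at 120 h. A count of 1 transcript overlapped its span there, without regard to name or strand. The fall of Rfc5 at 120 h and its rise at 168 h both rest on that gap. Through the introns the last step of Rfc5 was not called (0.93). Rpa1, the large subunit of the protein that coats single-stranded DNA, had 101 ± 2.18 FPKM in growth, 33.4 ± 0.971 at 60 h, 28.1 ± 1.25 at 120 h and 19.3 ± 0.774 at 168 h. Rpa2, its partner, had 55.0 ± 2.23 FPKM in growth, 9.17 ± 0.650 at 60 h, 9.39 ± 0.982 at 120 h and 9.97 ± 0.769 at 168 h. Both were assembled in 1 transcript with all introns each time, and both fell at 60 h, Rpa2 by a log2 ratio of -2.46 and Rpa1 by -1.57. After 60 h the intervals of Rpa2 overlapped, while those of Rpa1 stepped down with no overlap.

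The polymerases, primase and strand-joining enzymes were 9 members, of which 8 fell at 60 h (median log2 ratio -1.71) and 8 at 168 h against growth (median -2.54). Polymerase alpha and primase start each new strand with a short primer. Pola2, the regulatory subunit of polymerase alpha, had 31.4 ± 2.06 FPKM in growth, 6.58 ± 0.728 at 60 h, 7.83 ± 1.49 at 120 h and 4.21 ± 1.13 at 168 h, and fell at 60 h (-2.10). Prim1, the catalytic primase, had 21.2 ± 1.84 FPKM in growth, 5.78 ± 0.561 at 60 h, 3.15 ± 1.20 at 120 h and 0.765 ± 0.284 at 168 h. Prim2, its large partner, had 20.5 ± 1.23 FPKM in growth, 6.55 ± 0.531 at 60 h, 4.10 ± 0.594 at 120 h and 1.89 ± 0.301 at 168 h. Both primase genes fell at 60 h, Prim1 by -1.71 and Prim2 by -1.51, and Prim1 was the lowest of all 9 at 168 h by the sum. Pola1, the catalytic subunit on the X chromosome, had 8.07 ± 0.682 FPKM in growth, 3.86 ± 0.728 at 60 h, 3.03 ± 1.91 at 120 h and 2.72 ± 1.26 at 168 h. It was in 2 to 5 pieces, and through the introns it had 4.202, 1.17, 0.601 and 0.540 FPKM and fell at 60 h (-1.26), where the sum gave -0.90 and no call.

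Polymerases delta and epsilon carry out the bulk of synthesis on the lagging and leading strands. Pold1, the catalytic subunit of delta, had 29.96 ± 1.11 FPKM in growth, 9.74 ± 0.482 at 60 h and 6.09 ± 0.400 at 168 h, each in 1 transcript with all 26 introns. At 120 h no transcript was named as Pold1, although its neighbours Mybpc2 and Nr1h2 were assembled at 7.14 and 48.0 FPKM. A count of 1 transcript overlapped its span there, without regard to name or strand. The calls of Pold1 at the last 2 steps rest on that gap. Against growth Pold1 fell at 60 h (-1.53) and at 168 h (-2.13). Pole, the catalytic subunit of epsilon, had 8.72 ± 0.414 FPKM in growth, 2.67 ± 0.177 at 60 h, 12.7 ± 2.27 at 120 h and 4.71 ± 1.42 at 168 h. It was in 1 transcript with all 48 introns in growth and at 60 h, and in 7 and 9 pieces at 120 h and 168 h. Its rise at 120 h by the sum (1.90) had the opposite sign through the introns (-0.33, not called), where it had 8.72, 2.67, 1.93 and 0.418 FPKM. Pole2, the second epsilon subunit, had 12.4 ± 1.03 FPKM in growth, 3.02 ± 0.390 at 60 h, 2.23 ± 0.557 at 120 h and 3.33 ± 1.06 at 168 h, and fell at 60 h (-1.73). Through the introns Pole2 had 12.4, 3.02, 2.23 and 0.849 FPKM in the same order.

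Fen1 trims the flap of each Okazaki fragment and Lig1 seals the nick. Fen1 had 68.1 ± 5.67 FPKM in growth, 9.71 ± 1.65 at 60 h, 8.57 ± 2.62 at 120 h and 6.47 ± 1.49 at 168 h, and fell at 60 h (-2.69). Of its exon bases 84.2% lie opposite other annotated genes, so its level is uncertain, and through its 3 introns the ratio was -1.92. Lig1 had 51.1 ± 1.46 FPKM in growth, 10.1 ± 0.498 at 60 h, 6.23 ± 0.553 at 120 h and 7.94 ± 0.908 at 168 h, and fell at 60 h (-2.23). At 168 h it was in 3 pieces, and its ratio to 120 h was 0.31 by the sum and -1.03 through the introns, where it passed the rule.

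All 5 genes of nucleotide supply fell at 60 h by both measures (median log2 ratio -1.95). Ribonucleotide reductase makes deoxyribonucleotides from a large subunit, Rrm1, and an S-phase small subunit, Rrm2. Rrm2 (chr12:25393012-25398975) had 353 ± 6.06 FPKM in growth, 47.1 ± 2.06 at 60 h, 50.1 ± 3.42 at 120 h and 28.1 ± 2.69 at 168 h, the highest level of any member in growth. Its log2 ratio at 60 h (-2.88) was exceeded in size, by the sum, by that of Chaf1b alone. It was assembled in 2 to 4 transcripts, and through the introns it had 176, 34.8, 23.4 and 11.2 FPKM. Its ratio at 60 h was then -2.31, and Tk1, Cdc6, Chaf1b, Mcm5, Mcm7, Mcm3 and Rpa2 fell more by that value. Rrm1 had 119.8 ± 2.25 FPKM in growth, 30.4 ± 0.969 at 60 h, 18.1 ± 2.11 at 120 h and 8.28 ± 0.494 at 168 h, and its ratio at 60 h was -1.95. The pair was closer in level at 60 h, where Rrm2 stood 1.55 times above Rrm1, than in growth, where it stood 2.94 times above it; through the introns these factors were 1.16 and 1.47.

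Tyms, thymidylate synthase, had 58.5 ± 2.74 FPKM in growth, 13.9 ± 1.02 at 60 h, 8.59 ± 1.19 at 120 h and 7.59 ± 1.23 at 168 h, and fell at 60 h by a ratio of -2.002. Through the introns Tyms had 58.5, 13.9, 8.59 and 2.81 FPKM in the same order, and it fell at 168 h against 120 h by that value (-1.33), where the sum gave -0.16. Dut, which removes dUTP before it can enter DNA, had 66.7 ± 2.26 FPKM in growth, 28.4 ± 1.05 at 60 h, 30.3 ± 2.23 at 120 h and 12.02 ± 1.75 at 168 h. Its fall at 60 h was shallower (-1.20), its levels at 60 h and 120 h overlapped, and it fell again at 168 h (-1.27). Tk1, the thymidine kinase of cycling cells, had 42.2 ± 8.04 FPKM in growth, 19.8 ± 1.67 at 60 h, 26.3 ± 4.64 at 120 h and 8.33 ± 2.80 at 168 h. By the sum it was just past the limit at 60 h (-1.05), in 3 pieces with 2 of 7 introns. Through the introns Tk1 had 1.91 FPKM at 60 h, against 42.2 FPKM in growth (ratio -3.89). Rescaling to equal median ratios took Tk1 and Dut, with Rfc2, below 2-fold at 60 h.

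Chaf1a and Chaf1b encode the large and middle subunits of chromatin assembly factor 1, which places histones on new DNA at the clamp. Chaf1b had 40.4 ± 1.73 FPKM in growth, 4.43 ± 0.443 at 60 h, 6.02 ± 1.09 at 120 h and 2.70 ± 0.882 at 168 h, the largest fall of any member at 60 h by the sum (-2.93). Through the introns Tk1 (-3.89) and Cdc6 (-3.08) fell more than Chaf1b (-2.93). Chaf1a had 29.8 ± 0.956 FPKM in growth, 6.54 ± 1.25 at 60 h, 6.50 ± 0.566 at 120 h and 8.66 ± 0.948 at 168 h, and fell at 60 h by -2.03. After 60 h neither was called by the sum, and at 168 h both were in 3 pieces. Through the introns Chaf1b went on to 0.841 FPKM at 168 h, against 3.54 FPKM at 120 h, and passed the rule (-1.30), while Chaf1a had 3.98 FPKM, against 6.50 FPKM. Of the exon bases of Chaf1a 52.5% lie opposite Ubxn6.

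The repair gene Brca1 and the factors E2f1 and E2f2 did not move together. E2f1, an activator of S-phase genes, had 30.6 ± 3.35 FPKM in growth, 8.81 ± 1.55 at 60 h, 10.2 ± 0.785 at 120 h and 9.22 ± 0.561 at 168 h, and fell at 60 h (-1.69), with later intervals that overlapped. E2f2, a close relative counted among the activators, had 15.2 ± 2.22 FPKM in growth, 38.9 ± 2.25 at 60 h, 31.9 ± 1.51 at 120 h and 12.2 ± 1.31 at 168 h (chr4:135728252-135752074). It rose at 60 h (1.30), was not called at 120 h (-0.28) and fell at 168 h against 120 h (-1.32). At 168 h its interval overlapped that in growth. The level of E2f2 through the introns was 9.73, 38.9, 29.9 and 7.94 FPKM, with the same order of libraries, and its 9034 fragments at 60 h were the most of any member in that library. At 60 h E2f2 had 38.9 FPKM and E2f1 8.81 FPKM, whereas in growth E2f2 had 15.2 FPKM and E2f1 30.6 FPKM, so the order of the pair was turned round. Brca1, a ubiquitin ligase of homologous recombination, had 9.04 ± 0.681 FPKM in growth, 10.01 ± 1.79 at 60 h, 7.45 ± 2.61 at 120 h and 1.62 ± 0.884 at 168 h. It was in 2 transcripts in growth and in 9, 10 and 6 pieces later. Its ratio at 60 h was 0.13 by the sum and -1.31 through the introns, where it had 3.70, 0.892, 1.13 and 0.376 FPKM and fell.

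**Figure D4:**
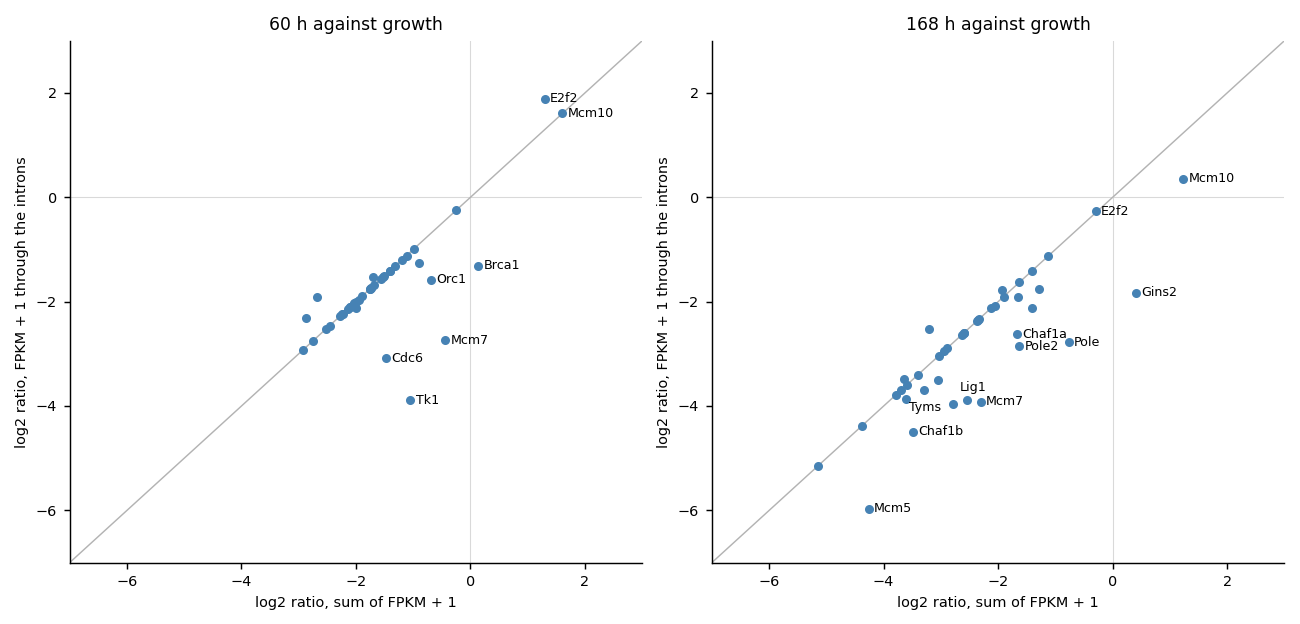
Log2 ratio of each member by the sum of FPKM (horizontal) and through the introns (vertical), at 60 h and at 168 h against growth; the diagonal marks equal ratios and members far from it are named. Most members lie on or near the diagonal; Mcm7, Tk1, Cdc6, Orc1 and Brca1 at 60 h and Gins2, Pole and Mcm5 at 168 h lie below it.

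At 60 h 34 members fell and 2 rose by both measures, where 9.04% and 7.28% of all genes did so. The measures are not independent. In growth 29 members were in 1 transcript, at 60 h 28 and at 168 h 20, and both values are then the same wherever introns were held. Mcm10, 1 of the 2 that rose, was taken as 0 in growth by both measures, so they could not differ for it. The figures for 168 h against growth were 37 and 0 (13.5% and 11.2% of all genes). Of the 40 members with a sum in all 4 libraries, 36 were highest in growth, 30 were lowest at 168 h and 21 went down at each step. Through the introns these were 37, 35 and 29 of 38. Most members were thus highest in growth, and fewer went down at each step. These orders were not counted over all genes, so no background share stands beside them.

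The share of the log2 fall at 168 h that was already seen at 60 h, with the growth library common to both ratios, had a median of 67.3% over the 39 members that fell, and of 63.6% through the introns. By the sum the licensing group had a median of 53.0% and the nucleotide group 52.6%, whereas the clamp group had 79.0% and the polymerase group 75.7%. Through the introns the licensing group had 60.0%, the nucleotide group 51.8%, the clamp group 67.4% and the polymerase group 60.7%, so the order of the groups was less spread by that value, and the difference between groups was not tested. Among single genes through the introns, Rpa2 had 105% of its fall by 60 h and E2f1 104%, and Orc2 had 21.9%.

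The 10 largest ratios at 60 h by the sum were those of Chaf1b, Rrm2, Mcm5, Fen1, Mcm3, Rpa2, Mcm4, Gins1, Lig1 and Cdt1, all falls, and they came from 6 of the 7 roles. The 10 smallest in size were E2f2, the lone rise among them, with Dut, Rfc2 and Tk1, which fell, and Rfc4, Pola1, Orc1, Mcm7, Orc2 and Brca1, which were not called. The order was another through the introns, where Tk1 had the largest ratio of all and Mcm7 (-2.74) the fifth.

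Other genes of the pathway were counted in the same way. Of 40 other replisome and origin genes, 17 fell and 0 rose at 60 h (median log2 ratio -0.87), and 31 fell and 1 rose at 168 h against growth (median -1.46). Of all genes 15.5% fell and 11.1% rose at 60 h, and 18.6% fell and 15.5% rose at 168 h against growth. Through the introns 23 of the 40 fell at 60 h and 0 rose (median -1.27), where 11.3% of all genes fell. The 4 largest falls at 60 h were in Dscc1, a subunit of an alternative clamp loader (16.2 FPKM in growth, 3.30 at 60 h, 2.95 at 120 h and 0.447 at 168 h), Topbp1, which helps fire origins (20.6 FPKM in growth, 4.56 at 60 h, 2.93 at 120 h and 2.37 at 168 h), Asf1b, a histone chaperone (74.2 FPKM in growth, 18.6 at 60 h, 11.6 at 120 h and 11.9 at 168 h), and Clspn, a checkpoint mediator at the fork (20.8 FPKM in growth, 4.98 at 60 h, 9.06 at 120 h and 2.10 at 168 h). Pold4, the small subunit of polymerase delta, was the gene that rose at 168 h against growth (1.31), with 56.0 ± 4.84 FPKM in growth, 80.3 ± 4.34 at 60 h, 127 ± 7.58 at 120 h and 141 ± 5.46 at 168 h. The median ratio of the 43 members lay below that of these 40 genes in both comparisons, and the difference was not tested. The lists also differ in level, with a median in growth of 35.8 FPKM for the members and 16.1 FPKM for these 40 genes. The log2 scale used here understates the change of low genes, so the 2 medians are not compared at like levels.

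Of 16 genes of replication-linked repair, 11 fell and 0 rose at 60 h (median -1.37) and 13 fell at 168 h against growth (median -1.67), beside the same shares of all genes. Through the introns 9 fell at 60 h (median -1.21). Msh6, a mismatch sensor, had 13.8 FPKM in growth, 3.42 at 60 h, 7.89 at 120 h and 2.63 at 168 h, Ung, which removes uracil from DNA, 15.6 FPKM in growth, 3.95 at 60 h, 4.43 at 120 h and 5.44 at 168 h, and Fancd2, of the Fanconi pathway, 7.78 FPKM in growth, 1.81 at 60 h, 4.16 at 120 h and 2.78 at 168 h. All 3 fell at 60 h, Msh6 by a log2 ratio of -1.74, Ung by -1.74 and Fancd2 by -1.64. Fancd2 was not called through the introns (-0.81).

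Of 11 other E2F factors and partners 3 fell at 60 h, namely E2f7 (10.6 FPKM in growth, 2.19 at 60 h, 10.6 at 120 h and 3.19 at 168 h), Tfdp2 (8.81 FPKM in growth, 2.43 at 60 h, 5.19 at 120 h and 8.27 at 168 h) and Rbl1 (12.9 FPKM in growth, 5.38 at 60 h, 11.1 at 120 h and 5.38 at 168 h), and 0 rose by the sum, where 15.5% of all genes fell and 11.1% rose. E2f7 is a repressor of the family, Tfdp2 a partner that binds DNA with E2F proteins, and Rbl1 a relative of the retinoblastoma protein. At 120 h E2f7 and Rbl1 were in 8 pieces each, and their higher levels there than at 60 h were seen by the sum alone. Through the introns E2f7 had 1.42 FPKM at 120 h, against 2.19 FPKM at 60 h, and Rbl1 had 1.32 FPKM at 120 h, against 2.82 FPKM at 60 h. The fall of Rbl1 at 60 h was not called through the introns (-0.92). Rb1, the retinoblastoma protein gene itself, rose at 60 h through the introns, to 7.96 FPKM at 60 h, against 2.44 FPKM in growth (1.38), but was not called by the sum (0.59). At 168 h against growth 5 of the 11 fell and 1 rose by the sum, where 18.6% of all genes fell and 15.5% rose. The gene that rose was Rbl2, a further relative known from resting cells (1.18), with 3.12 ± 0.394 FPKM in growth, 3.41 ± 0.253 at 60 h, 11.8 ± 1.52 at 120 h and 8.32 ± 1.01 at 168 h. It was in 1 transcript in growth and in 2 at 168 h, and through the introns it was not called (0.76).

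Among genes with a related activity that is known outside S phase, 2 of 9 fell and 0 rose, both at 60 h and at 168 h against growth (median log2 ratios -0.09 and -0.16), where 15.5% and 18.6% of all genes fell, so the count of 2 is near the background. Rrm2b, the small reductase subunit of resting and damaged cells, had 3.17 ± 1.91 FPKM in growth, 4.96 ± 0.991 at 60 h, 6.45 ± 3.05 at 120 h and 4.31 ± 1.38 at 168 h. Its level at 168 h was 4.31 FPKM, beside 28.1 FPKM of Rrm2 in that library. Tk2, the mitochondrial thymidine kinase, had 7.98 FPKM in growth, 6.63 at 60 h, 5.22 at 120 h and 6.38 at 168 h, and Dguok, the mitochondrial deoxyguanosine kinase, had 20.0 FPKM in growth, 18.8 at 60 h, 20.8 at 120 h and 19.3 at 168 h. Lig3, a ligase of repair and mitochondria, had 8.83 FPKM in growth, 13.4 at 60 h, 12.9 at 120 h and 10.4 at 168 h, against 51.1 FPKM in growth, 10.1 at 60 h, 6.23 at 120 h and 7.94 at 168 h for Lig1. Lig4, which joins double-strand breaks, had 2.03 FPKM in growth, 4.34 at 60 h, 3.38 at 120 h and 3.79 at 168 h. Polb, the base excision repair polymerase, had 19.1 FPKM in growth, 22.7 at 60 h, 18.9 at 120 h and 17.0 at 168 h, and Polg, the mitochondrial polymerase, 24.7 FPKM in growth, 16.2 at 60 h, 15.8 at 120 h and 17.3 at 168 h. None of these 7 was called in either comparison with growth. The pair that fell was Dck, a deoxycytidine kinase (13.3 FPKM in growth, 3.48 at 60 h, 6.36 at 120 h and 1.89 at 168 h), and Samhd1, which breaks down deoxynucleotides (21.2 FPKM in growth, 9.72 at 60 h, 8.76 at 120 h and 7.19 at 168 h).

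**Figure D5:**
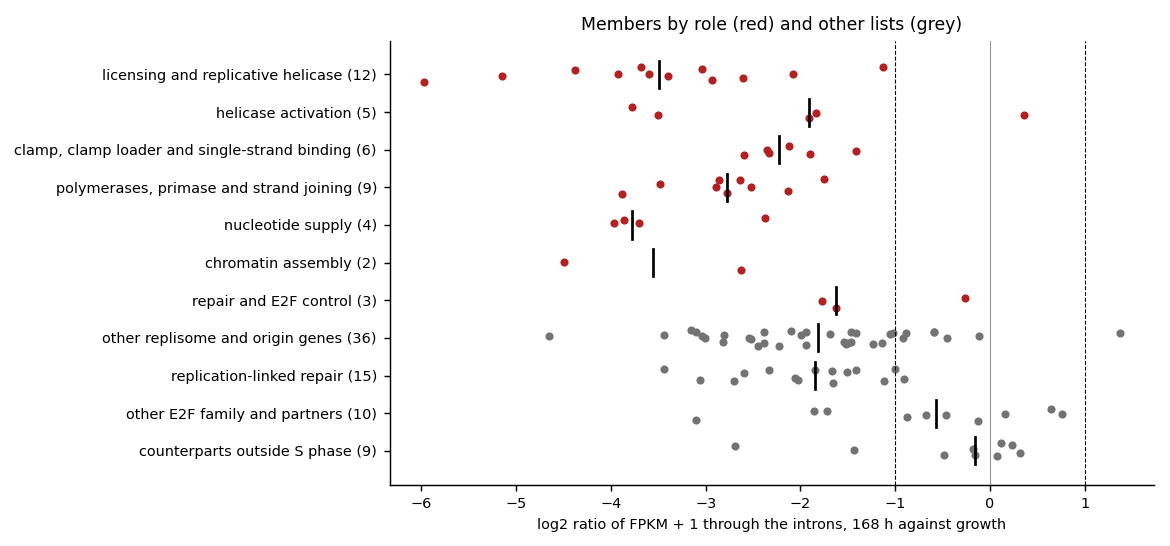
Log2 ratio of FPKM + 1 through the introns at 168 h against growth for each gene (points), the members by role in red and the other lists in grey, with the median of each list as a bar, its number of compared genes in brackets and the 2-fold limits dashed. Members lie left of the lower limit except Mcm10 and E2f2, and 7 of the 9 counterparts lie between the limits.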

How the data were processed

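Polyadenylated RNA of C2C12 cells was sequenced as paired ends, 1 library at each of 4 times. The authors deposited assembled transcripts with a value labelled RPKM and its confidence limits, per the file headers; it is called FPKM here, since it counts fragments. The submitters' processing notes name TopHat 1.0.13 and Cufflinks 0.8.0 without saying what each did. No source used here gives a genome build, and coordinates were left as in the deposited files. Library sizes follow from the limits, which lie 2 square roots of a fragment count from a value in genes with 1 transcript.

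With Python 3.11.15, numpy 2.4.6 and pandas 2.3.3, introns were named by runs of exon and intron lengths shared with a GENCODE mouse annotation (121681 of 137519) or, between named neighbours, by length (5424, of which 3.89% would match by chance). A single-exon transcript counted to a gene when 50% or more of its length fell in that gene's exons. Genes not assembled in a library were taken as 0. With 1 library per time no test was possible, so the size rule stands in, with a pseudocount of 1 FPKM. Values rest on 86.9% to 89.7% of each library, and strand was not marked per the labels' protocols. All 43 members are named, and of other lists the 4 largest ratios at 60 h and every counterpart outside S phase; 1 gene that this rule takes is not reported here. The members and lists were chosen with earlier results of these data known. Alternatives were another pseudocount, other minimums, 2 rescalings, 3 other gene measures, a 4-fold rule and genes assembled in both libraries. Promoters came from RefSeq (GRCm38.p6), whose coordinates were not mixed with those of the files.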

Additional observations from a re-analysis of the deposited data

How the results depend on the processing

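Falls at 60 h against growth numbered 35 and lay between 32 and 39 under the alternatives except the 4-fold rule, which gave 15. Rises there, 2, became 1 with a minimum of 5 FPKM or with genes assembled in both libraries, and 0 with the 4-fold rule. At 120 h against 60 h, the 3 falls became 6 over the union of exons, 1 with the 4-fold rule and 1 with genes assembled in both libraries. The 2 rises became 1 under either rescaling and 0 through the introns, over the union of exons or with the 4-fold rule. At 168 h against 120 h, the 15 falls became 10 under either rescaling or over the union of exons and 0 with the 4-fold rule, and the 3 rises became 1 with multi-exon transcripts alone, through the introns, over the union of exons, with the 4-fold rule or with genes assembled in both libraries. The 39 falls at 168 h against growth lay between 28 and 41 in all, and the 1 rise, Mcm10, became 0 with a minimum of 5 FPKM, multi-exon transcripts alone, through the introns, over the union of exons, with the 4-fold rule or with genes assembled in both libraries.

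Some log2 ratios changed sign. Brca1 at 60 h against growth became -1.17 with multi-exon transcripts alone, -1.31 through the introns and -1.62 with fragments over all exons. At 120 h against 60 h Mcm10 became -0.44 through the introns and -0.59 over the union, and Pole -0.33 and -0.65. At 168 h against 120 h Gins2 became -0.24 with multi-exon transcripts alone, -0.24 through the introns and -0.13 over the union, and Lig1 -1.03 through the introns and -1.11 over the union. Gins2 at 168 h against growth became -1.83, -1.83 and -1.73 under those 3 measures. These genes were in several pieces in at least 1 of the libraries compared; the cause was not tested. Before the pseudocount, median-ratio rescaling moved log2 ratios by 0.24 at 60 h against growth, -0.20 at 120 h against 60 h, 0.16 at 168 h against 120 h and 0.20 at 168 h against growth. With the pseudocount of 1 FPKM the ratios of low genes moved less.

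No paired analysis was possible because each time has 1 library and the labels give no replicate numbers. The limits leave out variation between cultures, and in genes with several transcripts they can be wider than counting error. The 120 h library is the smallest, and not being assembled is no measure that a gene's RNA was absent.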
